A study of Mus musculus with 5 samples.

Results

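Open chromatin that carried both HEB and TCF1 was described in double positive (DP) thymocytes, the immature T cells of the thymus that express CD4 and CD8 together. These regions were chosen by presence in 3 deposited region lists: a DNaseI region that overlapped at least 1 HEB region and at least 1 TCF1 region by 1 bp or more. The rule gave 619 of 48320 open regions, or 1.28%. The other open regions carried HEB alone (1039), TCF1 alone (2328) or neither factor (44334). The cells came from C57/BL6 mice aged 4 to 6 weeks, with no genotype change, treatment or agent named. Each of the 5 samples of the series is a different assay, and 3 of these assays had lists that were used here. The labels do not say how many mice were pooled or how the DP cells were isolated, and no marker level was measured, so the cell type rests on the labels.

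HEB, encoded by Tcf12, is a basic helix-loop-helix protein of the E protein family that binds E-box sequences as a dimer. TCF1, encoded by Tcf7, is a high mobility group box factor that binds the minor groove, bends DNA, and can recruit beta-catenin or Groucho-type corepressors. In the thymus HEB is known to act in T cell receptor gene rearrangement and in the survival of DP cells, and TCF1 in T lineage commitment and DP survival. DNase I cuts DNA that is less protected by nucleosomes, so a cluster of cuts marks a promoter, an enhancer or another regulatory element.

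Each assay had 1 sample, so no value has a spread between samples and no difference between classes of regions could be tested. Wilson intervals of shares and order-statistic intervals of medians, both 95%, cover the counting of regions only, and library depth is unknown. The score of a region is the authors' own value with no stated unit, and it was read only within its own list. Every HEB region spanned 201 bp and every TCF1 region 183 bp, so their centres were used as positions. Coordinates are of mouse build mm9, counted from 1, and regions were not assigned to genes.

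HEB and TCF1 regions lay on top of each other in most open regions that carried both. In 534 of the 619 members, or 86.3% (95% Wilson interval 83.3 to 88.8%), a HEB region and a TCF1 region overlapped directly. The other 85 members (13.7%) held them apart. The rule asked only that both factors meet the same open region, which was 1053 bp wide in the median, and did not ask that they meet each other. The median distance between the centres of the nearest HEB and TCF1 regions of a member was 55 bp (95% interval 47 to 63; quartiles 23.5 and 108). Centres were within 25 bp in 165 members, within 50 bp in 295 and within 100 bp in 445 (71.9%). Distances over 500 bp occurred in 25 members (4.04%). In 64 members the TCF1 region lay wholly inside the HEB region.

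**Figure D1:**
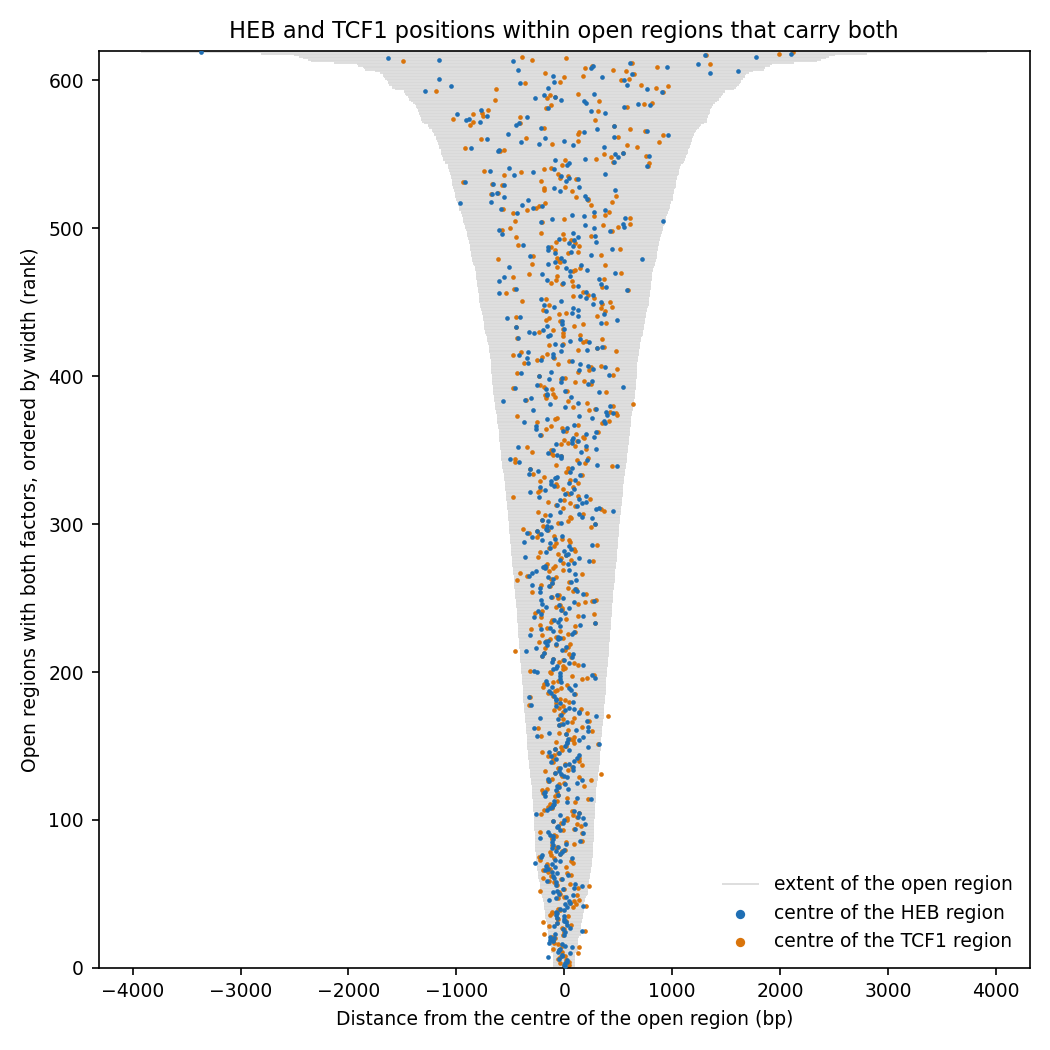
Each row is 1 of the 619 open regions with HEB and TCF1, ordered by width on the vertical axis; the horizontal axis is the distance from the centre of the open region in bp. Grey lines are the extent of the open region, and dots are the centres of its highest-scoring HEB and TCF1 regions. HEB and TCF1 centres fall near each other in most rows, a median of 55 bp apart for the nearest pair, while the pair can lie far from the centre in wide regions.

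Close spacing was found in wide and narrow open regions alike. Direct overlap was seen in 64 of 66 members up to 500 bp wide (97.0%, 89.6 to 99.2%) and in 207 of 224 members over 500 and up to 1000 bp (92.4%, 88.2 to 95.2%). It was seen in 120 of 148 members over 1000 and up to 1500 bp (81.1%, 74.0 to 86.6%) and in 143 of 181 members over 1500 bp (79.0%, 72.5 to 84.3%). The median distance between centres in these width groups was 30.5, 51.5, 63 and 69 bp (order-statistic intervals 22 to 38, 40 to 65, 45 to 83 and 57 to 91). Narrow regions leave less room for separate positions, so their short distances follow in part from the width. In members over 1500 bp the median of 69 bp was small beside the width of the region. The distance and the width had a Spearman's rho of 0.27 over the 619 members, given as a description of positions that share 3 libraries.

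**Figure D2:**
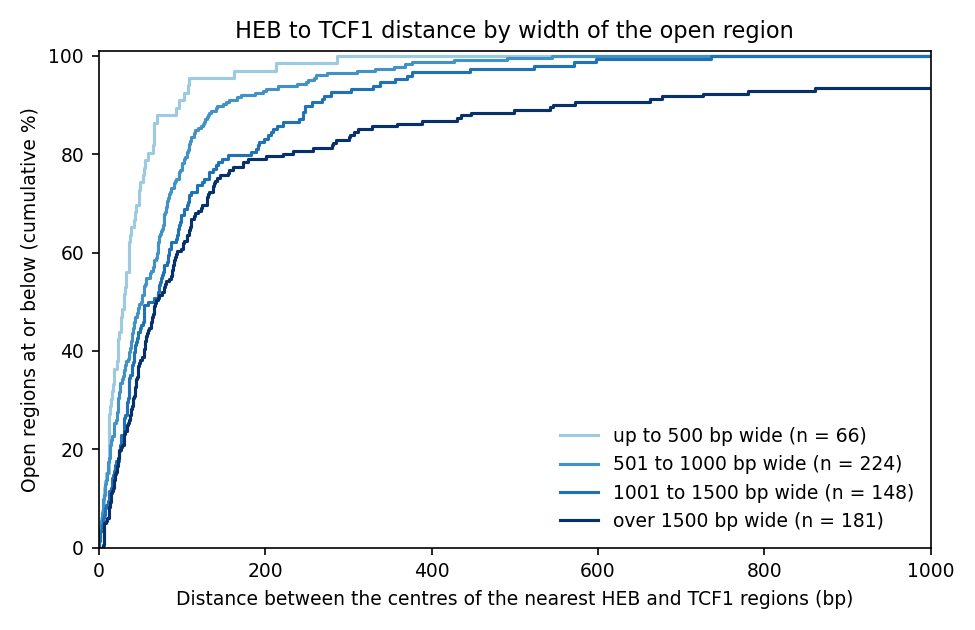
Cumulative share of open regions with both factors (vertical axis, %) against the distance between the centres of their nearest HEB and TCF1 regions (horizontal axis, bp, shown to 1000 bp), with 1 line for each width group. All 4 lines rise steeply below 100 bp, and the line for regions over 1500 bp has the longest tail, with distances up to 5483 bp outside the plot.

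The 85 members with separate HEB and TCF1 regions were wider than the 534 with direct overlap. Their median width was 1457 bp (1244 to 1576), against 989 bp (932 to 1077). Their nearest centres lay a median of 330 bp apart (282 to 389), against 44 bp (40 to 48). That difference is set by the split itself, because directly overlapping regions have centres at most 191 bp apart. The median DNaseI score was 128 (108 to 155) in separate members and 85 (77 to 91) in directly overlapping ones. Within width groups the difference was smaller and its order mixed. The medians were 61 with overlap and 53 without over 500 and up to 1000 bp, 102.5 and 112.5 over 1000 and up to 1500 bp, and 179 and 191 over 1500 bp, with intervals that overlapped in each of these groups. Up to 500 bp, where only 2 members were separate, they were 24 and 20.5. The median of each member's highest HEB score was 16 with overlap and 15 without, and the corresponding TCF1 medians were 12 and 11. The separate members thus stood apart by width, whereas the intervals of the factor scores overlapped (16 to 17 and 13 to 17 for HEB, 11 to 13 in both sets for TCF1). Separate factor regions need more room, so the width difference also follows in part from the split.

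The 5 members with the longest distances show what the tail consists of. The widest open region of the series, chr11:52088379-52096224, had its HEB and TCF1 centres 5483 bp apart, on opposite sides of its centre. In chr17:56428619-56433526 they were 2173 bp apart. In chr7:74564293-74567488 the distance was 2017 bp, with a HEB score of 10 (percentile 20.8 of its list) and a TCF1 score of 8 (percentile 6.27). The remaining members of this group were chr7:132748872-132752192 with 1754 bp and chr11:52152299-52157143 with 1649 bp. All 5 were over 3 kb wide, with DNaseI scores from 175 to 871.

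Most members held a single region of each factor. There were 564 members (91.1%, 88.6 to 93.1%) with 1 HEB and 1 TCF1 region. Another 28 held 1 HEB and 2 TCF1 regions, 20 held 2 HEB and 1 TCF1 regions, 6 held 2 of each, and 1 held 1 HEB and 3 TCF1 regions. The 55 members with more than 1 region of a factor (8.89%) had a median width of 1876 bp, against 988 bp in the others, and a median DNaseI score of 183, against 85. Their nearest HEB and TCF1 centres were 55 bp apart in the median, against 54.5 bp in members with 1 of each. Together the members held 645 of the 1701 HEB regions found in open chromatin (37.9%) and 655 of the 3010 TCF1 regions there (21.8%).

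In all, 7 members tied at the highest number, 4 factor regions, and the 5 of them with the highest DNaseI scores are described. In chr8:108145095-108148814, with a DNaseI score of 508, HEB regions with scores of 15 and 44 and TCF1 regions with scores of 9 and 20 were found. Its nearest pair was 54 bp apart. In chr16:96089919-96092671, with a DNaseI score of 316, HEB scores were 46 and 49 and TCF1 scores 28 and 16, and the nearest centres were 7 bp apart. The member with 3 TCF1 regions, chr9:57617065-57619032, had a DNaseI score of 261 and its single HEB region scored 41. The others were chr5:106077468-106079302, with a DNaseI score of 316 and a nearest distance of 48 bp, and chr11:68012012-68014884, with a score of 238 and a distance of 18 bp. Each of these 5 therefore contained at least 1 closely spaced HEB and TCF1 pair among its factor regions.

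The pair was often away from the middle of the open region, and the factors lay there together. The highest-scoring HEB region had its centre a median of 145 bp (132.5 to 160) from the centre of the open region, and the highest-scoring TCF1 region 136 bp (124 to 159). In members over 1500 bp these distances were 345.5 and 352 bp, while the nearest HEB and TCF1 centres were 69 bp apart. Both factors lay on the same side of the centre in 484 of 619 members (78.2%, 74.8 to 81.3%). Among the 176 members in which both were over 200 bp from the centre, 157 had them on the same side (89.2%, 83.8 to 93.0%). Directly overlapping regions have centres at most 191 bp apart, so highest-scoring regions that overlap at such distances can only lie on the same side. Where a member held several regions of a factor, the overlapping pair could be another one. Some such members had direct overlap and their highest-scoring regions on opposite sides. This share thus follows in large part from the direct overlap and is not separate evidence of closeness. HEB was nearer the centre in 320 members (51.7%, 47.8 to 55.6%), TCF1 in 295, and both were equally near in 4. The counts thus showed no clearly more central factor.

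As a share of the distance from centre to edge, the median position was 31.2% (27.1 to 33.8%) for HEB and 30.0% (27.7 to 33.9%) for TCF1. In open regions with HEB alone it was 34.6% (32.0 to 37.5%), and with TCF1 alone 34.7% (33.0 to 36.0%). In regions up to 500 bp the values were 32.4% (23.4 to 41.4%) for HEB in members and 48.6% (42.9 to 55.8%) for HEB alone, and 43.5% (31.7 to 58.1%) for TCF1 in members and 57.2% (52.7 to 62.9%) for TCF1 alone. Over 500 and up to 1000 bp they were 29.0% and 29.4% for HEB and 27.6% and 24.7% for TCF1, and over 1000 and up to 1500 bp 31.5% and 32.1% for HEB and 28.8% and 34.8% for TCF1. Above 1500 bp they were 32.3% and 36.6% for HEB and 34.0% and 34.9% for TCF1. Within width groups, the intervals of the median position in members and in regions with 1 factor lay apart only for HEB up to 500 bp. There HEB was nearer the middle in members. They overlapped in the other width groups and for TCF1 in all of them. A centre outside the open region was found for HEB in 5 members (0.808%, 0.346 to 1.88%) and in 65 regions with HEB alone (6.26%, 4.94 to 7.90%). For TCF1 it was found in 11 members (1.78%, 0.995 to 3.15%) and in 178 regions with TCF1 alone (7.65%, 6.64 to 8.80%). These shares are pooled over widths and were not read within width groups. Regions up to 500 bp were 66 of the 619 members, 319 of the 1039 with HEB alone and 729 of the 2328 with TCF1 alone.

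The share of open regions with both factors was higher at each step of the DNaseI score above 10. It was 0.0785% (5 of 6366) at the lowest score of 8, 0.0315% (2 of 6350) at 9 to 10, and 1.49% (125 of 8376) at 31 to 60. It reached 12.5% (10.6 to 14.7%) above 100 and up to 150, and 32.9% (28.7 to 37.4%) above 150. Of the 100 highest-scoring open regions, 50 were members. The DNaseI score of the 619 members ran from 8 to 871 with a median of 91 (85 to 96), and it followed the width closely, with a Spearman's rho of 0.92. Width itself went the same way: members made up 0.197% of open regions up to 500 bp, 1.92% over 500 and up to 1000 bp, 6.41% over 1000 and up to 1500 bp, and 20.4% over 1500 bp. A wide region meets more factor regions by its size alone, so these shares describe the choice of members.

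Within a width group, the median DNaseI score was highest in members. It was 23 in members up to 500 bp, against 16 with HEB alone, 20 with TCF1 alone and 11 with neither factor. Over 500 and up to 1000 bp the medians were 60, 44, 53 and 37 in the same order. Over 1000 and up to 1500 bp they were 105, 78, 90.5 and 72, and over 1500 bp they were 181, 135, 142.5 and 116. The order of the 4 classes was thus the same in each width group. The 95% intervals of members and of regions with TCF1 alone overlapped up to 500 bp (19 to 27 and 19 to 21) and over 500 and up to 1000 bp (53 to 63 and 51 to 55). They lay apart over 1000 and up to 1500 bp (96 to 111 and 88 to 94) and over 1500 bp (173 to 192 and 130 to 150). Each group spans a range of widths, the last without an upper limit, and the score of members followed width (Spearman's rho 0.92). Widths of the classes were not compared inside a group. Whether remaining width differences account for the order of the scores was not tested.

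The share of open regions with HEB that also carried TCF1 was larger where the HEB score was high. TCF1 was present in 72 of 311 open regions whose highest HEB score was 9 to 10 (23.2%, 18.8 to 28.1%), in 119 of 223 at 21 to 30 (53.4%, 46.8 to 59.8%) and in 94 of 157 above 30 (59.9%, 52.1 to 67.2%). No member had a highest HEB score below 10. Within width groups up to 1500 bp the share was also higher at 21 to 30, with intervals that lay apart up to 1000 bp and overlapped over 1000 and up to 1500 bp. Up to 500 bp the share was 8.11% (9 of 111) at HEB scores of 9 to 10 and 42.9% (15 of 35) at 21 to 30. Over 500 and up to 1000 bp it was 25.2% (18.6 to 33.1%) and 44.9% (35.0 to 55.3%). Over 1000 and up to 1500 bp it was 39.6% (27.6 to 53.1%) and 61.4% (46.6 to 74.3%), with intervals that overlapped. Above 1500 bp it was 66.7% (8 of 12) and 67.3% (37 of 55). At HEB scores above 30 the share was 37.0% (10 of 27), 48.8% (21 of 43), 53.1% (17 of 32) and 83.6% (46 of 55) from the narrowest to the widest group. It was thus below the share at 21 to 30 in the first and the third of these groups and above it in the others, with intervals that overlapped in all 4.

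For TCF1 the share with HEB was likewise larger at high scores. HEB was present in 53 of 358 open regions whose highest TCF1 score was 7 to 8 (14.8%, 11.5 to 18.9%) and in 88 of 254 above 20 (34.6%, 29.1 to 40.7%). Up to 500 bp these shares were 6.78% (8 of 118) and 13.6% (8 of 59), with intervals of 3.48 to 12.8% and 7.03 to 24.5% that overlapped. Above 1500 bp they were 35.7% (10 of 28) and 74.4% (29 of 39). Inside the members the scores of the factors went together only weakly, with a Spearman's rho of 0.12 between the highest HEB and the highest TCF1 score.

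**Figure D3:**
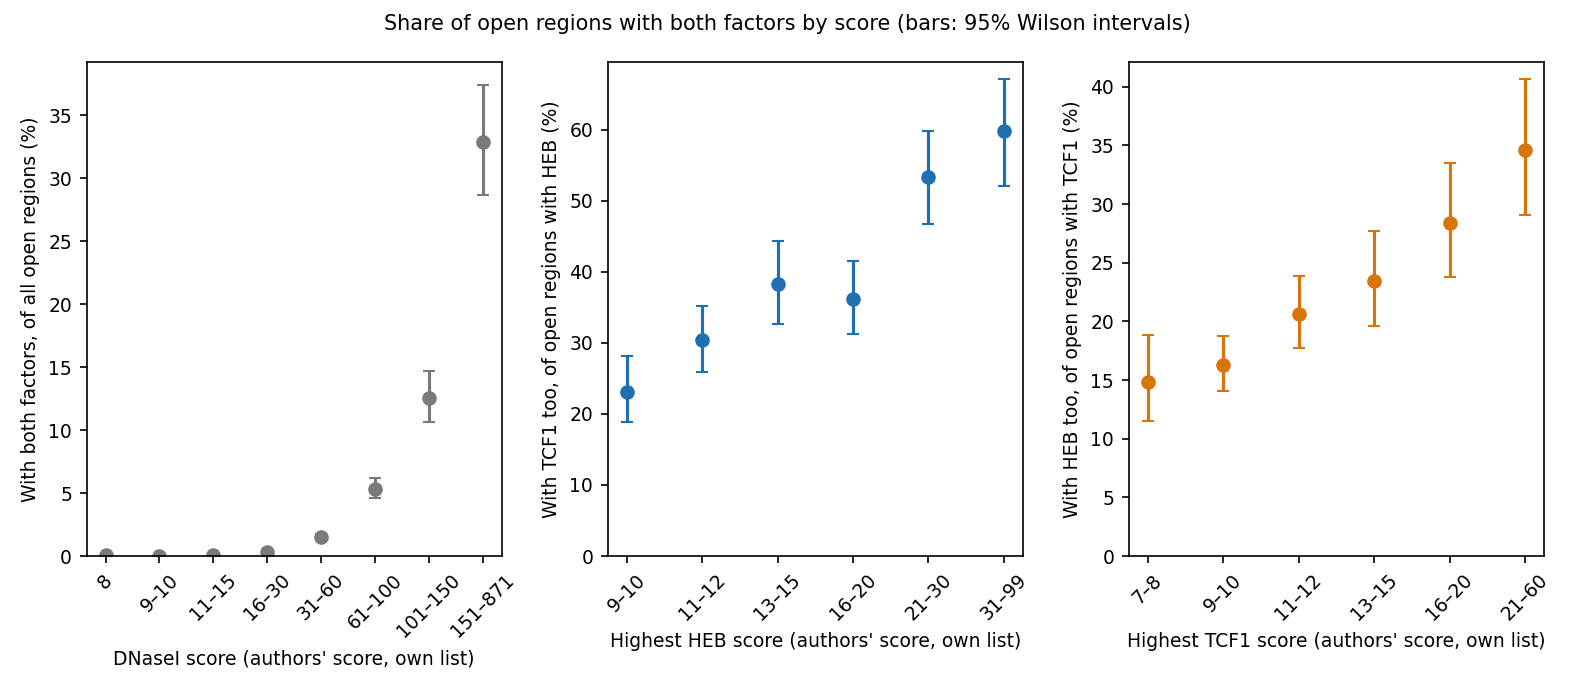
Share of open regions that carry both factors (vertical axes, %) by the authors' score in each list (horizontal axes, score ranges): of all open regions by DNaseI score (left), of open regions with HEB by highest HEB score (middle) and of open regions with TCF1 by highest TCF1 score (right). Points are shares and bars 95% Wilson intervals; the share is 32.9% at DNaseI scores above 150, 59.9% at HEB scores above 30 and 34.6% at TCF1 scores above 20.

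The members that ranked high in all 3 lists at once were ordered by the lowest of their percentile ranks. The first was chr2:172801351-172804054, 2704 bp wide, with a DNaseI score of 298, a HEB score of 47 and a TCF1 score of 37. All 3 scores were above the 99th percentile of their lists, and the factor centres were 71 bp apart. Next came chr2:101391382-101391997, only 616 bp wide, with scores of 137, 39 and 34 in the same order and TCF1 2.5 bp from its centre. These members show high scores in elements on either side of the median member width of 1053 bp.

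On chromosome 6, chr6:125305058-125306056 had scores of 130, 38 and 32, with its factors 249 bp apart and not overlapping. A second member there, chr6:124849868-124851493, scored 259, 54 and 30 with centres 89 bp apart. The region chr16:96089919-96092671, named above for its 4 factor regions, also belonged to this group, with highest HEB and TCF1 scores of 49 and 28. In chr1:191653817-191656690 the DNaseI score was 241, the HEB score 34 (percentile 97.2) and the TCF1 score 48 (percentile 99.9), with centres 106 bp apart. In 3 of these 4 members the factor regions overlapped.

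The remaining members of this group were from 744 to 3358 bp wide. In chr9:20440717-20441590, 874 bp wide, the scores were 136, 46 and 27 and the distance 65 bp. In chr10:20811712-20813476 a HEB region with a score of 46 lay beside a pair of TCF1 regions that each scored 25, at a DNaseI score of 280. In chr3:38178913-38179656, 744 bp wide, the scores were 87, 30 and 40, and the next open region was 2383 bp away. The last, chr14:54845340-54848697, had a DNaseI score of 555, a HEB score of 29 and a TCF1 score of 40, 281 bp apart without overlap. Of these 10 members, 8 had directly overlapping factor regions. The widths of the 10 ran from 616 to 3358 bp, so none was in the width group up to 500 bp.

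At the other end, 16 members had DNaseI scores of 15 or less. Among them were the 10 narrowest members, all 201 bp wide, of which the 5 with the highest DNaseI scores are described. In chr15:27221318-27221518 the DNaseI score was 14 but the HEB score was 31. In chr4:38818962-38819162, with a DNaseI score of 9, the HEB score was 24, the factor centres were 12 bp apart, and the next open region was 1262578 bp away. In chr2:154952341-154952541 a HEB score of 26 and a TCF1 score of 9 stood at a DNaseI score of 10, 5 bp apart. The HEB score was 23 in chr16:8745917-8746117 and 10 in chr3:59039029-59039229, both at a DNaseI score of 11. Of all 10 members of this width, 6 carried a HEB region in the top 10% of the HEB list (60%, 31.3 to 83.2%). Such HEB scores were common among members: over all 619, the upper quartile was 24, itself at percentile 92.0 of that list. HEB and TCF1 overlapped directly in all 10, against 86.3% of all members.

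Few regions lay near the edge of the rule. For each factor in a member, the region with the largest overlap was taken. The smallest of these overlaps was 47 bp, for TCF1 in chr5:140691528-140692353. The next were 52 bp for HEB in chr3:59039029-59039229 and 54 bp for TCF1 in chr18:73808241-73808544. Just outside were chr1:135956561-135958240, with HEB inside and a TCF1 region that began at its edge with a gap of 0 bp, chrX:11779989-11780189, with TCF1 inside and HEB 36 bp away, and chr16:10667993-10669012, with HEB inside and TCF1 67 bp away. With factor regions up to 100 bp outside allowed, 4 more open regions met both factors, counted over regions with 1 factor or neither. Of the 3367 open regions with 1 factor, 23 had the other factor up to 500 bp outside.

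More than 50% of members had another open region close by. Another open region lay within 1 kb of 339 of 619 members (54.8%, 50.8 to 58.6%), against 40.3% of all open regions. The share was 46.1% (43.1 to 49.1%) with HEB alone, 39.7% (37.8 to 41.7%) with TCF1 alone and 40.0% (39.5 to 40.5%) with neither factor. It was larger in wider regions of every class, so it was also read within width groups. Up to 500 bp it was 28.8% (19.3 to 40.6%) in members and 39.3% (38.7 to 39.8%) with neither factor, over 500 and up to 1000 bp 45.5% (39.1 to 52.1%) and 40.3% (39.4 to 41.3%), and over 1000 and up to 1500 bp 64.2% (56.2 to 71.5%) and 47.7% (45.2 to 50.1%). Over 1500 bp it was 68.0% (60.8 to 74.3%) in members, 66.7% (56.6 to 75.4%) with HEB alone and 57.4% with TCF1 alone or neither (52.8 to 61.9% for neither). The intervals of members and of regions with neither factor thus lay apart over 1000 and up to 1500 bp and overlapped in the other width groups. No open region lay closer than 199 bp to another, in members as in the other classes.

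**Figure D4:**
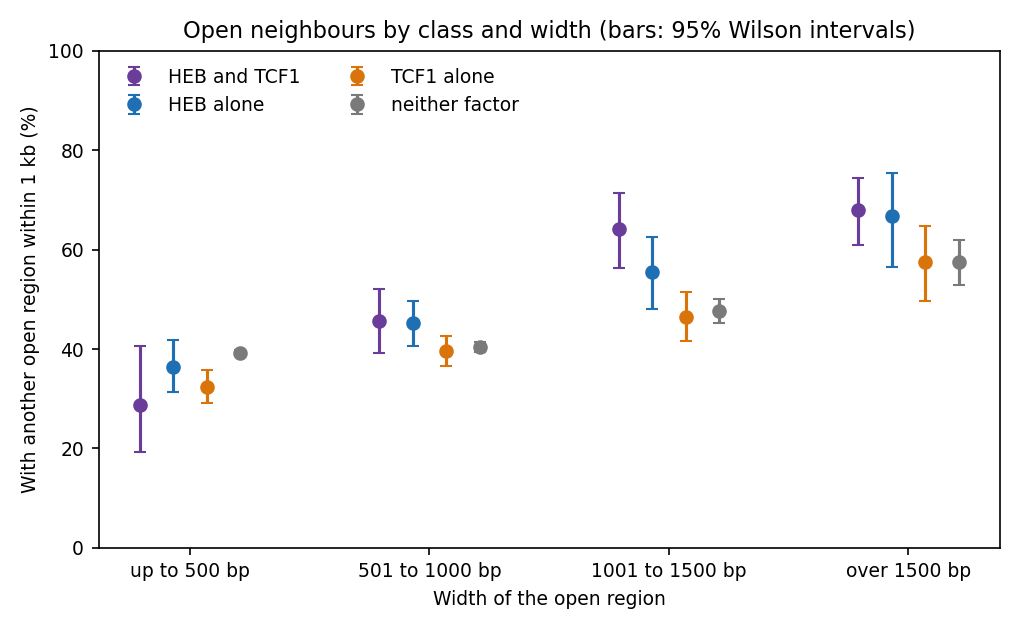
Share of open regions with another open region within 1 kb (vertical axis, %) by width group (horizontal axis) and class (colours); points are shares and bars 95% Wilson intervals. The share is 28.8% in members up to 500 bp wide and 68.0% in members over 1500 bp, and the intervals of members and of regions with HEB alone overlap in all 4 width groups.

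Neighbours that were not members themselves rarely carried a factor. Neighbours with both factors were left out of these counts, although some members did lie within 1 kb of another member. Of the 436 other open regions within 1 kb of a member, 409 (93.8%, 91.1 to 95.7%) had neither factor, 13 had HEB alone and 14 had TCF1 alone. Most non-members of the whole series likewise had neither factor: 44334, against 1039 with HEB alone and 2328 with TCF1 alone. The median width of the neighbours was 329.5 bp and their median DNaseI score 17, against 1053 bp and 91 in the members. In the whole class with neither factor the medians were 306 bp and 15. The non-member open sites beside members were thus mostly narrow, low-scoring and without either factor, much like most open regions of the series.

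Members also lay near each other in places. Another member was found within 10 kb of 79 members (12.8%, 10.4 to 15.6%), while 4.8% of all open regions had a member within 10 kb. This share was 7.60% (6.14 to 9.38%) of regions with HEB alone, 4.34% (3.58 to 5.24%) with TCF1 alone and 4.65% with neither factor. Up to 500 bp the shares were 4.55% (3 of 66 members) and 4.48% with neither factor, and over 500 and up to 1000 bp 12.1% (8.42 to 17.0%) and 4.68% (4.28 to 5.11%). Over 1000 and up to 1500 bp they were 15.5% (10.6 to 22.2%) and 6.36% (5.26 to 7.67%). With HEB alone they were 5.96% (3.85 to 9.11%), 7.52% (5.43 to 10.3%) and 7.43% (4.39 to 12.3%) in these groups. Over 1500 bp they were 14.4% (10.0 to 20.2%) in members, 13.98% (8.35 to 22.5%) with HEB alone and 9.76% (7.35 to 12.8%) with neither factor. The intervals of members and of regions with HEB alone overlapped in every width group. The median gap from a member to the next was 384448 bp, and 449 members had no other within 50 kb.

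When members with gaps of at most 50 kb were joined, 170 of them fell into chains of 2 to 6. The chain with most members, chr6:71257469-71346306, held 6 over 88838 bp, together with 43 open regions in all, 11 HEB and 8 TCF1 regions. Its members scored from 27 to 229 for DNaseI, and HEB and TCF1 overlapped directly in all 6, with centres from 6 to 135 bp apart. Chains of 5 lay at chr5:66291348-66347545 and chr2:101872427-101958133, with DNaseI scores of 82 to 152 and 41 to 168 and direct overlap in all members of both.

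Chains of 4 included chr13:112767926-112793418, the most compact at 25493 bp, with direct overlap in all 4, and chr11:115267607-115325354, with DNaseI scores of 111 to 294 and direct overlap in 3. The chain of 4 at chr11:52088379-52157143 was named after its values were seen, because its geometry differed from these. It held the widest open region of the series and had direct overlap in 1 member only, chr11:52122766-52125416, where the centres were 156 bp apart. In its other members the factors lay 285, 1649 and 5483 bp apart.

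All 619 members were on autosomes. They made up from 0.790% of open regions on chromosome 14 (13 of 1645, 0.462 to 1.35%) to 1.67% on chromosome 16 (27 of 1617, 1.15 to 2.42%), and the intervals of these extremes overlapped. Chromosomes 2 and 11 held most members, 62 each. These were 1.51% of the 4098 and 1.36% of the 4575 open regions there, near the 1.28% of all open regions. None of the 409 open regions of the X chromosome (Wilson interval 0 to 0.930%) and none of the 4 on the Y chromosome was a member.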

How the data were processed

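DNase I hypersensitivity, HEB ChIP and TCF1 ChIP of DP thymocytes were each measured in 1 sample by SOLiD sequencing, per the labels' protocols. The authors deposited 1 region list per assay with a score per region, whose unit is not stated. The submitters' processing notes list HOMER 6.1 and build mm9 with no role. The aligner, thresholds, controls and depth were not given in the sources used here. The H3K9me3 and H3K27ac samples were not analysed here.

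Members were DNaseI regions that met a HEB and a TCF1 region by 1 bp or more. Where a member held several regions of a factor, positions and scores are those of the highest-scoring one, and distances those of the nearest pair. Width groups had edges at 500, 1000 and 1500 bp. Shares have 95% Wilson intervals, and medians exact binomial order-statistic intervals. No test was made, because each assay had 1 sample. Named regions follow fixed rules: the 10 members with the highest lowest percentile rank over the 3 scores, 5 each by most factor regions, smallest width (ties in both in order of DNaseI score) and longest pair distance, the 5 largest chains (in order of members, then shorter span), and 3 regions on either side of the overlap rule. The chain chr11:52088379-52157143 was added after its values were seen. The members and rules were chosen with earlier results of these data known. Overlap rules, score filters, autosomes and other distances were tried as alternatives. The reference tables at hand are of GRCm38, so the planned gene annotation and motif counts were not run. The geometry code was checked on simulated lists. Tools were matplotlib 3.10.9, pandas 2.3.3, scipy 1.17.1 and numpy 2.4.6 under Python 3.11.15.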

Additional observations from a re-analysis of the deposited data

How the results depend on the processing

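The 13 main values were recomputed under 76 alternatives, and 61 stayed within the interval of the reported value, or within 1.5 times for the number of members. The overlap rules moved no value out of it: 604 members were left when 50% of the factor region, or its centre, had to lie inside, and 623 with a gap of up to 100 bp. The rules of 50% and of the centre gave the same values, so they count as 1 check. All members were on autosomes, so the restriction to autosomes could not move a value. Its alternatives are among the 61 but show nothing about stability. With scores above the median of each list, 257 members were left, of which 85.2% still had direct overlap. Their median DNaseI score was 117, width 1213 bp, HEB score 20, TCF1 score 17 and TCF1 position 26.97%. Another open region lay within 1 kb of 37.7% of them and another member within 10 kb of 4.67%, where fewer regions were left to be neighbours. In members up to 1 kb wide the direct share was 93.4%, the median distance 43 bp and the median DNaseI score 50.5. There the median DNaseI score of directly overlapping members minus that of separate ones was 2, against -43 in all members. When direct overlap had to cover 50% of the TCF1 region, a setting chosen after seeing the data, its share was 71.9%. The neighbour shares were 27.5% at 50 kb (members) and 87.4% at 10 kb (open regions). Depth is unknown, so regions missing from a list carry no limit.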

Other observations

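Of the 4930 HEB regions, 1701 overlapped an open region, and 537 of these met a TCF1 region. Of the remaining HEB regions, which were more numerous, only 41 met a TCF1 region. The place was read from the HEB region only, so its TCF1 region could itself touch an open region. Where several TCF1 regions were met, the first along the chromosome was taken. The centres were closer outside than inside: the median distance was 9 bp (5 to 23) outside and 44 bp (40 to 49) for the 537 HEB regions in open regions that met TCF1. The median HEB score was 16 in both sets, and the median TCF1 score was 11 outside and 12 inside, with highest TCF1 scores of 20 and 60. Of the 41, 5 lay on the X chromosome and 3 on the Y chromosome, where no open region carried both factors. With 1 sample per assay the difference in distance was not tested.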
